A study of Mus musculus with 6 samples.

Results

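Promoter peaks near OCT4 sites are the H3K27ac peaks of O4AID ESCs that lie at a gene start and also lie close to a place where OCT4 binds. They were chosen as the peaks that carry the authors' mark for an OCT4 peak within 1 kb and that have at least 1 GENCODE vM21 transcript start within 1 kb. The rule found 1279 of 31131 peaks, which is 25.3% of all peaks with the OCT4 mark. No H3K27ac value after treatment enters the rule, although a peak had to be seen in untreated cells to be on the list at all. The OCT4 sites come from published ChIP-seq of other ESCs, so the mark shows where OCT4 can bind and not where Oct4AID was bound in these cells.

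O4AID ESCs are mouse ESCs of 129SV background with the genotype Oct4-/-, a TetOFF Oct4 transgene, and Oct4AID and Tir1 that are both driven by the CAG promoter. Cells of both groups were grown in N2B27 with 1 μM PD03, 3 μM Chiron and LIF, and with doxycycline at 1 μg/ml, which keeps the wild-type Oct4 transgene off. The 3 uninduced libraries are from untreated cells, and the 3 IAA libraries are from cells given 500 μM IAA (indole-3-acetic acid, an auxin that leads to the degradation of AID-tagged protein) for 1.5 h. All samples come from 1 engineered line with constitutive transgenes, the labels name the antibody as ab4792 where the paper has ab4729, and no input or spike-in was used here. Nothing in the labels says that the libraries of a group are separate cultures, so p-values measure the spread between these samples, which may be technical.

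Acetylation of lysine 27 on histone H3 marks active enhancers and the nucleosomes beside active transcription starts, and it is written mainly by p300 and CBP. OCT4 (Pou5f1) is the POU-domain factor at the centre of the pluripotency network, and it binds the octamer, often in a joint element with SOX2. Most OCT4 binding in ESCs is at distal enhancers, and promoters near OCT4 sites are the smaller group in which the start of a gene and the bound site share a neighbourhood. Many housekeeping promoters are CpG islands, whereas promoters with few CpG are more often those of regulated genes.

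Each value is in RPKM, the reads in a peak per kilobase of its length and per unit of sequencing depth. A peak was tested if the authors' mean of either group was at least 0.5 RPKM, and 1218 of the 1279 members (95.2%) passed. Of these, 8 passed only through the uninduced mean and 2 only through the IAA mean. The 61 members below the threshold had authors' means of at most 0.493 RPKM and are not described further. The libraries held 31634480 to 39547452 reads, and the median member held 85 to 110 reads in an uninduced library and 51 to 61 in an IAA library, so counting error alone was 9.54% to 14% of such a value. All 10 naive ESC markers had a tested peak within 1 kb of a start, against 1 of 8 trophectoderm markers (Tfap2c), 1 of 6 endoderm and mesoderm markers (Gata6) and 2 of 3 neural markers (Pax6 and Sox1).

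The 1218 members had a median length of 874 bases, from 272 to 5766. A transcript start fell inside the peak at 729 of them and beside it at 489. A protein-coding gene had a start within 1 kb at 950 members, only long noncoding RNA genes did at 156, and only other genes such as pseudogenes and small RNAs did at 112. At 172 members starts lay on both strands. These peaks differed from other promoter peaks in sequence. Their median GC content was 51.9% and their median ratio of observed to expected CpG was 0.43, against 57.6% and 0.67 for the 11906 tested promoter peaks without an OCT4 site. A peak was called CpG-rich at a ratio of at least 0.6 with a GC content of at least 50%. By this rule 31.4% of members were CpG-rich, against 60.2% of promoter peaks without an OCT4 site and 0.987% of distal peaks near OCT4 sites, so the members lay between the other promoters and the distal peaks.

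To show the sequence that lies beside these promoters, the 2 kb about the centre of each peak was searched on both strands for the octamer ATGCAAAT and for the OCT-SOX composite, which is CATTGT, then 1 base of any kind, then ATGCAAAT. Up to 2 mismatches were allowed in the 14 fixed letters of the composite, which contains the octamer, so the searches overlap. The octamer was found at 18.6% of members, 7.21% of promoter peaks without an OCT4 site, 20.7% of distal peaks near OCT4 sites and 9.83% of other distal peaks. The composite was found at 6.32%, 1.09%, 6.62% and 1.76% of them, and at 2.3% of all tested peaks. On both motifs the members were thus closer to the distal peaks near OCT4 sites than to the other promoters. A match is a description of the letters and not a bound site. Over the peak and 1 kb on either side, 93 members held a composite, 7 of them with 1 mismatch and 0 without any.

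The 8 composites below are those with the fewest mismatches that lie outside annotated exons, ordered by mismatches and then by uninduced RPKM. They are read from GRCm38, 5′ to 3′ on the strand of the motif, with the 15 letters of the composite in capitals and 25 bases on either side.
Cnot9: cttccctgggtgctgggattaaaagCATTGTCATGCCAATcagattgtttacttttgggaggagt
Nanog: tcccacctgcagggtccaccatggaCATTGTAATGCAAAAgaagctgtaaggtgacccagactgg
Rpe: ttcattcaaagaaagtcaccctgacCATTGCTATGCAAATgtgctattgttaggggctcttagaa
Ttc25: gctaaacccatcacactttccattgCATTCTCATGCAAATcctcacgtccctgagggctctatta
Dido1: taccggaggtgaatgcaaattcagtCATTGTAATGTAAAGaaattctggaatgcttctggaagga
Hnrnpu: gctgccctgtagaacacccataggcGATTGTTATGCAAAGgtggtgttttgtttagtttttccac
Canx: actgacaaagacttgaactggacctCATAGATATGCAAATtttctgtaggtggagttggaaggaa
Trp53: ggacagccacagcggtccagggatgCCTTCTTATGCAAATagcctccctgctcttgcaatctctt

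Counted from 1 at the 5′ end of the composite, with the motif's letter first, the substitutions are A12C at Cnot9, T15A at Nanog, T6C at Rpe, G5C at Ttc25, C11T and T15G at Dido1, C1G and T15G at Hnrnpu, T4A and T6A at Canx, and A2C and G5C at Trp53. The printed windows are chr1:74507922-74507986 (minus strand, in an intron of Cnot9 that Usp37 also spans), chr6:122707388-122707452 (minus, intergenic, beside Nanog), chr1:66700038-66700102 (minus, intergenic, beside Rpe) and chr11:100545190-100545254 (plus, intergenic, at Ttc25). The others are chr2:180709164-180709228 (minus, in an intron of Dido1), chr1:178338239-178338303 (plus, intergenic, beside Hnrnpu), chr11:50326824-50326888 (plus, intergenic, beside Canx) and chr11:69581955-69582019 (plus, in an intron of Trp53). Only the Ttc25 composite lies inside its H3K27ac peak, and the others lie 41 to 598 bases outside theirs.

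All 8 of these peaks fell after IAA by limma, a linear model fitted to log2(RPKM + 0.1) at all 26457 tested peaks with Benjamini-Hochberg adjustment, which called 68.2% of all tested peaks and 84.9% of members lower at an adjusted p under 0.05. At Trp53, the gene of the p53 tumour suppressor, the peak had 6.80 ± 0.568 RPKM (SD, n = 3) in uninduced cells and 3.01 ± 0.143 RPKM after IAA, with a log2 change of -1.15. At Nanog, which encodes a homeodomain factor of naive pluripotency, it went from 6.49 ± 0.640 to 3.75 ± 0.431 RPKM. Its log2 change was -0.77. Dido1, a chromatin-associated factor, went from 12.3 ± 0.396 to 6.94 ± 0.925 RPKM (log2 change -0.83), and Rpe, a sugar phosphate epimerase, from 3.90 ± 0.264 to 2.34 ± 0.260 RPKM (-0.71). Smaller changes were at Cnot9 (-0.54), the chaperone gene Canx (-0.46), the RNA-binding protein gene Hnrnpu (-0.46) and Ttc25 (-0.45). The largest adjusted p of the 8 was 0.0452, at Ttc25 (limma). The Ttc25 call was lost when any library but IAA replicate 3 was left out (adjusted p of 0.0734 to 0.156 from limma). Those at Canx and Hnrnpu were lost without uninduced replicate 2 (0.0542 and 0.0685), and that at Canx also without uninduced replicate 1 (0.0560). Relative to the median peak, only Trp53 of the 8 was called (limma adjusted p = 0.0204), and Cnot9, Hnrnpu, Canx and Ttc25 had positive values of 0.01 to 0.10 that were not called. Over all 93 members with a composite the quartiles of the log2 change were -0.93 and -0.58.

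Promoter peaks near OCT4 sites had less H3K27ac in every IAA library than in any uninduced library. The median over the 1218 members of log2(RPKM + 0.1) came to 1.74, 1.68 and 1.63 for uninduced replicates 1, 2 and 3, and to 1.08, 0.96 and 0.80 for IAA replicates 1, 2 and 3. The group means were 1.69 ± 0.0553 (SD, n = 3) and 0.95 ± 0.139 (SD, n = 3), a difference of -0.74. All 20 labellings of the libraries were compared in an exact permutation test (two-sided), which gave p = 0.1, which is the smallest p that 3 libraries against 3 allow, and an adjusted p of 0.156 over the 14 comparisons of this kind. No comparison of library values below could pass 0.05. The size of the library is part of RPKM, so anything that moves all peaks together is part of this difference, and less H3K27ac per cell cannot be told apart from fewer cells with the mark. The share of a library's reads that fell in any peak was 7.12%, 6.91% and 6.63% in uninduced and 5.15%, 4.68% and 4.05% in IAA libraries, so it moved with the treatment at all peaks together. Over all tested peaks the difference of medians was -0.55, and with libraries centred on their median peak the members' difference was -0.19.

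Peak by peak, limma called 1034 of the 1218 members lower and 0 higher at an adjusted p under 0.05. The share called lower over all tested peaks was 68.2%, so most of the members' 84.9% is also seen in the background. Without the adjustment, 0 members with a positive change had a p under 0.05 (limma). The peaks were called on reads of the uninduced group, which is also the baseline here. Such a choice can favour lower over higher calls, and its part was not tested. At 1038 members (85.2%) all 3 IAA values were below all 3 uninduced values, against 71.2% of all tested peaks. The log2 changes of single members ran from -2.01 to 0.50, with quartiles of -0.85 and -0.51 about a median of -0.64, and 1205 of 1218 were negative. The median of these changes is smaller in size than the difference of library medians, which compares the middle of 2 distributions and does not follow the same peak. For promoter peaks without an OCT4 site the median change was -0.52, and 68.5% were called lower.

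**Figure D1:**
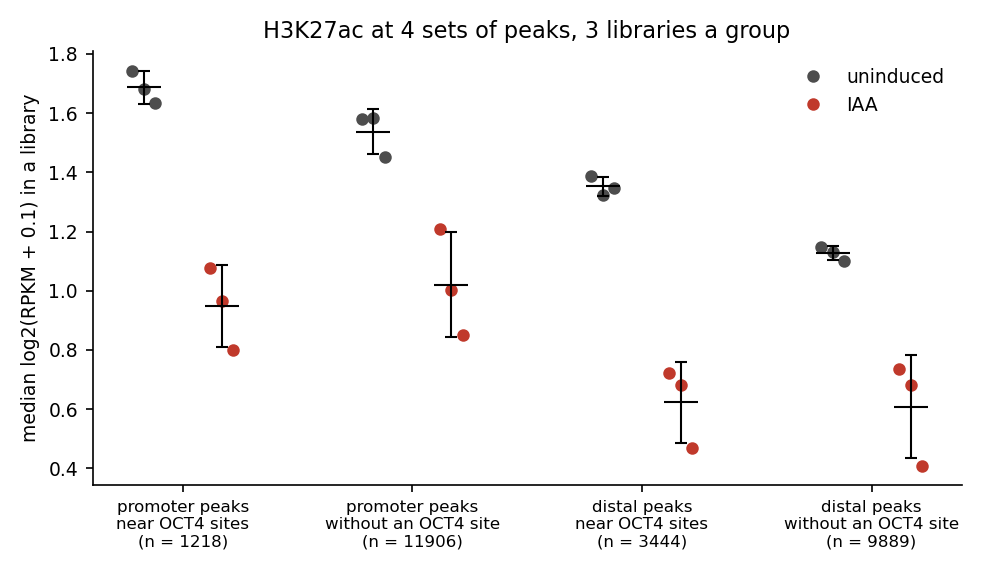
Median log2(RPKM + 0.1) over the peaks of each set (y axis) in the 3 uninduced (grey) and 3 IAA (red) libraries, with bars for the mean and SD over libraries. Promoter peaks near OCT4 sites had the highest median of the 4 sets in the uninduced libraries, at 1.63 to 1.74, and after IAA they were below promoter peaks without an OCT4 site in each library.

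The design asks whether H3K27ac at a promoter changed more where OCT4 can bind nearby. Within a library, the median of the members minus that of promoter peaks without an OCT4 site cancels any factor common to the library. For uninduced replicates 1, 2 and 3 this came to 0.16, 0.10 and 0.18, and for IAA replicates 1, 2 and 3 to -0.13, -0.04 and -0.05. By library medians the members were thus the higher promoters before treatment and the lower ones after it, a shift of -0.22 with no overlap between libraries (0.15 ± 0.0434 against -0.07 ± 0.0497, SD, n = 3, exact permutation p = 0.1, adjusted 0.156). Followed peak by peak, the median log2 change was -0.64 at members and -0.52 at the other promoters. The gap on this measure is smaller than the shift of -0.22, and it was not tested over libraries. Of the reads that fell in any peak, members took 6.70 ± 0.0492% (SD, n = 3) before and 6.28 ± 0.0821% after IAA, and again the libraries did not overlap (exact permutation p = 0.1). Among promoters of like uninduced RPKM, in 5 groups of equal size, the shift was -0.15, although these groups rest on the uninduced values that enter the shift itself. Among CpG-rich promoters alone it was -0.11.

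Promoter peaks of the same gene could also be set against each other. At 352 genes or groups of genes with shared peaks, 1 or more members stood beside 1 or more promoter peaks without an OCT4 site. The median difference between them, member minus other peak, came to 0.03, -0.02 and 0.04 before treatment and to -0.12, -0.07 and -0.07 after it. At the same gene the peaks near OCT4 sites were thus about level with the others before treatment and below them after it (shift -0.10, exact permutation p = 0.1, no overlap). This comparison was chosen after the data were seen, and peaks near each other are not independent.

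Members were also set against the 3444 tested distal peaks near OCT4 sites. Within a library the members were higher by 0.36, 0.36 and 0.29 in uninduced cells and by 0.36, 0.28 and 0.33 after IAA. The libraries overlapped and the shift was -0.01 (exact permutation p = 0.5). Followed peak by peak, the median log2 change was -0.74 at these distal peaks (quartiles -0.95 and -0.57) and -0.64 at members (-0.85 and -0.51). By this measure the distal peaks fell more, and the gap was not tested over libraries. With the peaks grouped by uninduced RPKM the shift was 0.11 with the smallest possible p of 0.1. The groups are formed on the same uninduced values that make the starting point of the shift, so sets that differ in level can drift apart after grouping without any change of their own, and no direction is read from this value. The difference that goes with the OCT4 mark was lower at promoters than at distal peaks by 0.08, 0.09 and 0.06 in uninduced and by 0.12, 0.04 and 0.11 in IAA libraries, which overlap, and its shift was -0.01 (exact permutation p = 0.8). Peak by peak, the median changes without the mark were -0.52 at promoters and -0.54 at distal peaks. On that measure the gap that goes with the mark was wider at distal peaks, which was not tested.

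**Figure D2:**
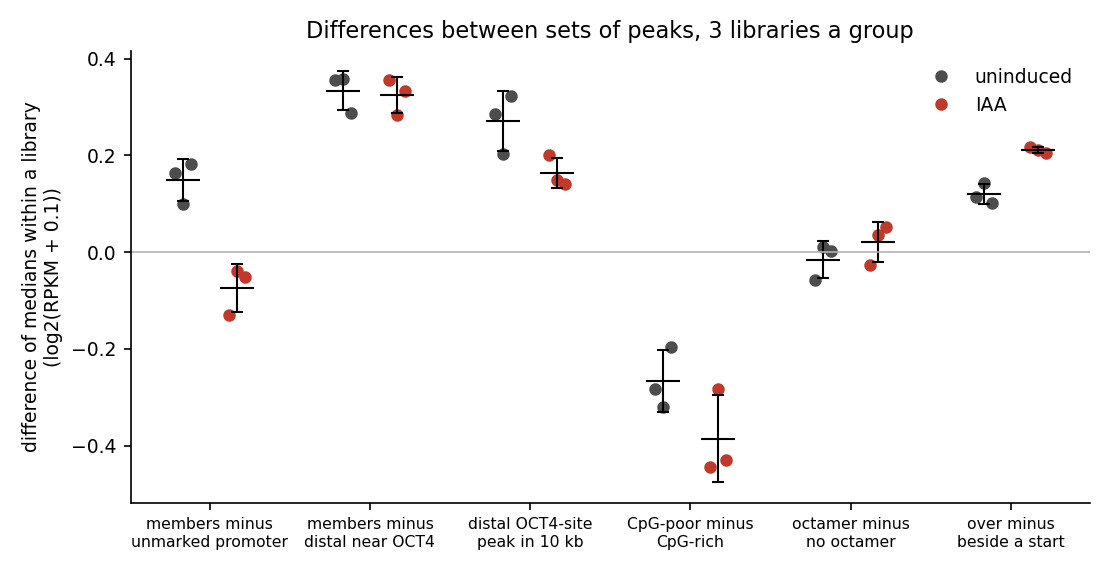
Differences between medians of peak sets within each library (y axis, log2(RPKM + 0.1)) for 6 comparisons, with uninduced libraries in grey, IAA libraries in red and bars for the mean and SD of 3 libraries. The first comparison lies between 0.10 and 0.18 in uninduced and between -0.13 and -0.04 in IAA libraries, and the octamer and CpG comparisons overlap between the groups.

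CpG content separated the members. The 383 CpG-rich members had a median of 1.86 ± 0.0939 (SD, n = 3) in uninduced and 1.24 ± 0.159 in IAA libraries, and the 835 CpG-poor members 1.59 ± 0.0537 and 0.85 ± 0.148. The CpG-poor minus CpG-rich difference was -0.28, -0.32 and -0.20 in uninduced libraries and -0.44, -0.28 and -0.43 after IAA, which overlap (shift -0.12, exact permutation p = 0.3). A comparison with other promoters of the same class was added after the data were seen. CpG-rich members stood above CpG-rich promoters without an OCT4 site by 0.20 ± 0.0313 before and 0.09 ± 0.0175 after IAA, a shift of -0.11. CpG-poor members stood above their counterparts by 0.23 ± 0.0393 before and 0.01 ± 0.0453 after, a shift of -0.21. The difference between the classes was 0.02, 0.01 and 0.04 in uninduced and -0.11, -0.07 and -0.05 in IAA libraries, which did not overlap (exact permutation p = 0.1, adjusted 0.156). The shift that goes with an OCT4 site was thus larger at CpG-poor promoters in these libraries.

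**Figure D3:**
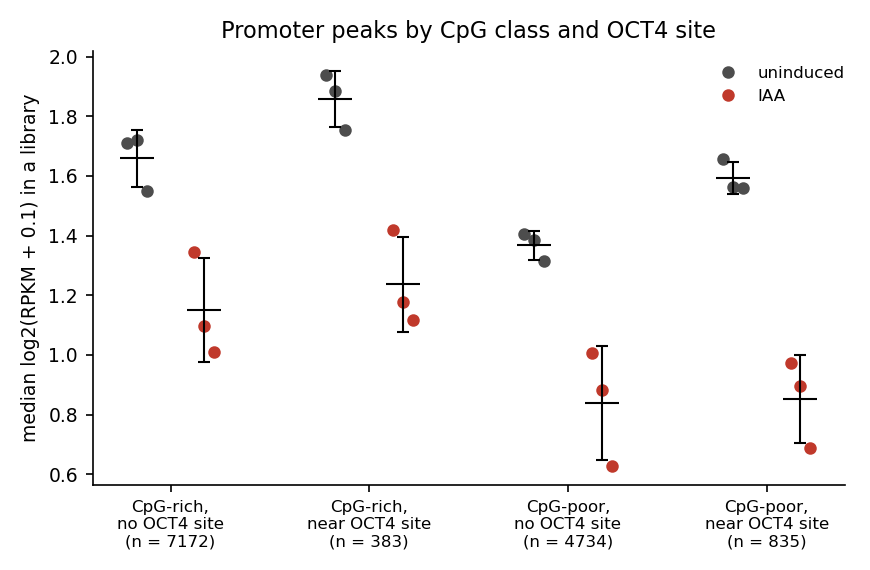
Median log2(RPKM + 0.1) in each library (y axis) of CpG-rich and CpG-poor promoter peaks with and without an OCT4 site within 1 kb, with uninduced libraries in grey, IAA libraries in red and bars for mean and SD of 3 libraries. CpG-poor members stood 0.23 above CpG-poor promoters without a site before IAA and 0.01 above them after.

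Of the 1218 members, 207 had a distal peak near an OCT4 site within 10 kb. They stood above the other 1011 members by 0.29, 0.20 and 0.32 in uninduced libraries and by 0.20, 0.15 and 0.14 in IAA libraries. Without overlap, but with the lowest uninduced library close to the highest IAA library, the shift was -0.11 (exact permutation p = 0.1). Among CpG-poor members alone, a split added after the data were seen, it was -0.18. Of the 207, 185 were called lower (89.4%), against 849 of the 1011 (84.0%) and 68.2% of all tested peaks. The 207 also had more H3K27ac before IAA, and among members the share called rose with that level. Nothing about the neighbour is read from these shares. The 313 members with an octamer in the peak or within 1 kb of it had a median log2 change of -0.62, and the 905 without one had -0.65. The difference in library medians was 0.04 (exact permutation p = 0.4), with overlap. Where the octamer had to lie inside the peak the shift was 0.09, without overlap (exact permutation p = 0.1, the smallest possible), and for the composite in place of the octamer it was -0.06 (exact permutation p = 0.4).

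Where the peak sat relative to the start also went with the size of the change. Members over a start had a median of 1.74 ± 0.0594 (SD, n = 3) before and 1.03 ± 0.151 after IAA, and those beside a start 1.62 ± 0.0537 and 0.82 ± 0.144. The difference between them was 0.11, 0.14 and 0.10 in uninduced and 0.22, 0.21 and 0.20 in IAA libraries, a shift of 0.09 with no overlap (exact permutation p = 0.1, a comparison chosen after the data were seen). CpG content moved with it, since 41.8% of members over a start and 15.95% of those beside one were CpG-rich. Within the CpG-poor members the median log2 change was -0.65 over a start and -0.71 beside one, and within the CpG-rich members it was -0.56 and -0.65. The part of CpG content in the difference was not tested further. Members with only long noncoding RNA genes stood 0.29 below those with coding genes before IAA and 0.27 below them after (exact permutation p = 0.5).

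Members were also divided by uninduced RPKM into 4 groups of like size. The group with the least H3K27ac had a median log2 change of -0.58 with 61.0% called lower, and the others had medians of -0.64, -0.70 and -0.68 with 89.8% to 94.7% called lower. The lowest group also had the fewest reads, on which a call depends.

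Since most peaks were lower, members were also tested after each library was centred on its median peak. On this scale 81 members were lower (6.65%) and 7 higher, against backgrounds of 1.97% lower and 0.544% higher over all tested peaks. Of promoter peaks without an OCT4 site, 0.428% were lower on this scale, and of distal peaks near OCT4 sites 7.87% were. The count of 81 depends on single libraries. Without uninduced replicate 1, 2 or 3 it was 17, 39 and 24, and without IAA replicate 1, 2 or 3 it was 57, 72 and 104. The 81 were 7.78% of CpG-poor and 4.18% of CpG-rich members, 13.0% of members with a distal peak near an OCT4 site within 10 kb and 5.34% of those without, and 7.98% of members beside a start and 5.76% of those over one. The differences between these shares were not tested.

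**Figure D4:**
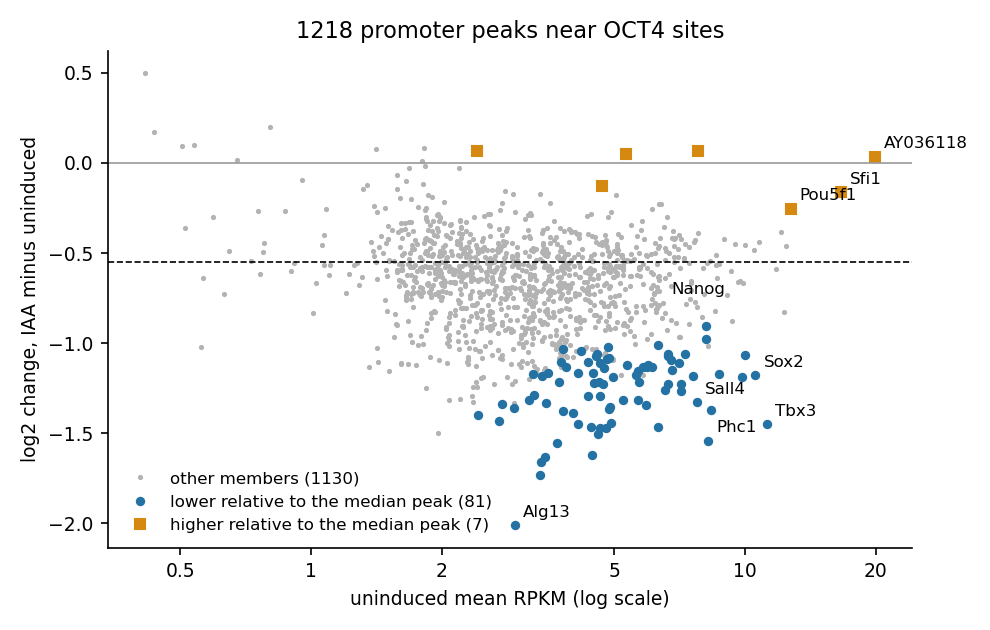
Log2 change after IAA (y axis) against the uninduced mean RPKM (x axis, log scale) for the 1218 tested members, with those called lower (blue, 81) or higher (orange, 7) relative to the median peak. The dashed line is the median change of all tested peaks, -0.55, and Alg13 at -2.01 is the lowest point.

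The 6 largest falls among members at coding genes with at least 2 RPKM were at 5 genes, none of which is on the lists of pluripotency genes. Alg13, which encodes a subunit of an enzyme of N-glycosylation, had 2 of them. Its peak at chrX:144336966-144337663 had 3.05, 2.72 and 3.08 RPKM in uninduced libraries and 0.673, 0.835 and 0.497 RPKM after IAA. Every IAA value was under 1 RPKM, and the log2 change was -2.01 (SE 0.219, limma adjusted p = 1.67e-05), the lowest of all members. The other peak, at chrX:144335979-144336574, changed by -1.66 on the log2 scale. Another Alg13 member, at chrX:144318219-144319503 by another start of the gene, fell by 0.75.

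Phc1, a subunit of Polycomb repressive complex 1, had the highest level of the 6. Its peak at chr6:122340061-122340585 had 9.31, 7.48 and 7.89 RPKM in uninduced libraries and 3.19, 2.75 and 2.37 RPKM after IAA, with a log2 change of -1.54 (SE 0.160, limma adjusted p = 1.38e-05). Slc9a2, a sodium-proton exchanger gene, changed by -1.63, Ssr2, a subunit of the translocon-associated protein complex, by -1.62, and Ttf1, which ends transcription by RNA polymerase I, by -1.56. In all 6 peaks the IAA libraries lay below the uninduced libraries, and each was also lower relative to the median peak, with limma adjusted p-values of at most 0.00998.

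Other members lower relative to the median peak, named here after their values were seen, include 3 peaks of Myo10 (an unconventional myosin of filopodia), with log2 changes of -1.50, -1.06 and -1.09, and peaks of Pdgfc (a growth factor, -1.47), Porcn (the enzyme that acylates Wnt proteins, -1.43) and Tfe3 (a bHLH factor, -1.45 and -1.16). L1td1, an RNA-binding protein gene of ESCs, changed by -1.22. The highest uninduced RPKM among the 81 was at Tbx3, with 11.2.

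At the other end, the 6 coding members of at least 2 RPKM with changes nearest 0 or above it fell into 2 kinds. The peaks at Gm10801, Gm21738 and Gm10800 had positive changes of 0.07, 0.06 and 0.05 with overlapping libraries. They are 59.5%, 83.9% and 78.3% soft-masked repeat, where the median member is 9.67%, and the part of the repeats in these values was not tested. Stk38l, a kinase gene, had 2.28, 2.28 and 2.02 RPKM in uninduced and 2.23, 2.39 and 1.85 RPKM in IAA libraries, which overlap, with a log2 change of -0.03 (limma adjusted p = 0.883). Sec22b, a SNARE protein gene, changed by -0.16 and Sfi1, a centrosome protein gene, by -0.16, neither past the threshold.

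The 4 members with the most uninduced H3K27ac were at AY036118, Sfi1, Pou5f1 and 4932422M17Rik. At AY036118, a peak of 5766 bases shared with Gm42418, values were 18.9, 22.3 and 18.6 RPKM before and 22.1, 19.3 and 19.8 RPKM after IAA, with overlap. Of its bases, 5755 are annotated exon. How uniquely reads map at this peak and at Sfi1 was not tested. Sfi1 had 16.7 ± 0.635 RPKM (SD, n = 3) before and 14.9 ± 1.09 after. Of these 4 only 4932422M17Rik was called lower, from 12.4 ± 0.475 to 9.04 ± 1.15 RPKM (log2 change -0.46), and without uninduced replicate 1 its limma adjusted p was 0.0539. Relative to the median peak, the first 3 were higher, as were Gm25939, Gm10800, Gm10801 and Gm21738, and these are the 7 members higher on that scale. Only 1 to 7 were called when 1 library was left out.

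Pou5f1, the gene of OCT4 itself, had the strongest member of the naive pluripotency list. Its peak at chr17:35505638-35506727 had 12.8, 13.0 and 12.4 RPKM in uninduced libraries and 11.5, 10.99 and 9.51 RPKM after IAA. All 3 IAA values were lower, but the change of -0.25 on the log2 scale was not called (SE 0.132, limma adjusted p = 0.0877), and relative to the median peak it was 0.30 (limma adjusted p = 0.0270). Without IAA replicate 1 the change of -0.31 was called (limma adjusted p = 0.0278). Of its 1089 bases, 466 are annotated exon. The line carries Oct4 transgenes, and whether reads from them were counted in this peak was not tested.

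Across 34 naive pluripotency genes, 16 had 28 members, of which 26 were lower and 0 higher, where 84.9% of all members and 68.2% of all tested peaks were lower. Relative to the median peak, 8 were lower and 1, Pou5f1, was higher, which is 28.6% lower against 6.65% of all members and 1.97% of all tested peaks. The median change was -0.87, against -0.64 for all members and -0.55 for all tested peaks. The 24 promoter peaks of the same list without an OCT4 site had a median change of -0.79. The list was chosen for pluripotency with these data known, and it is no independent evidence of direction.

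Of the core factors, Sox2, the partner of OCT4, had 11.3, 10.7 and 9.68 RPKM in uninduced libraries and 5.42, 4.62 and 3.88 RPKM after IAA at its highest member, chr3:34650466-34651581, with a log2 change of -1.18 (SE 0.153, limma adjusted p = 3.87e-05). Tbx3, a T-box factor of naive cells, had 12.2, 11.1 and 10.3 RPKM before and 4.94, 4.55 and 2.90 RPKM after (log2 change -1.45). At both genes the lowest uninduced library was well above the highest IAA library. The 2 members of the zinc finger factor gene Sall4 changed by -1.33 and -1.47, and both were lower relative to the median peak. Nanog changed by -0.77 and was not called relative to the median peak (limma adjusted p = 0.363).

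The other genes of the list also had lower peaks. Dppa5a, an RNA-binding protein gene of naive cells, had 2.72, 2.65 and 2.73 RPKM before and 1.34, 1.37 and 1.11 RPKM after IAA. Dppa2 and Dppa4, partners that bind CpG-dense promoters, changed by -1.02 and -0.72 at their highest members, with the Dppa4 call lost without uninduced replicate 3 (limma adjusted p = 0.0537). That Dppa2 peak lies 734 bases from a start. The Dppa2 member over a start changed by -0.47, and its call was lost without any 1 uninduced library or IAA replicate 2 (limma adjusted p of 0.0505 to 0.1035). Mycn, a MYC family factor, changed by -1.15, the TGF-beta family ligand gene Gdf3 by -0.89, Fbxo15 by -0.89 and Zscan10 by -0.92. Rif1, a replication timing factor, changed by -0.68 at its highest member, where IAA replicate 3 had 5.002 RPKM and lay above uninduced replicate 3 with 4.57 RPKM. That call was lost without IAA replicate 2 (log2 change -0.34, limma adjusted p = 0.126) and without uninduced replicate 1 or 2 (0.0650 and 0.0578).

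**Figure D5:**
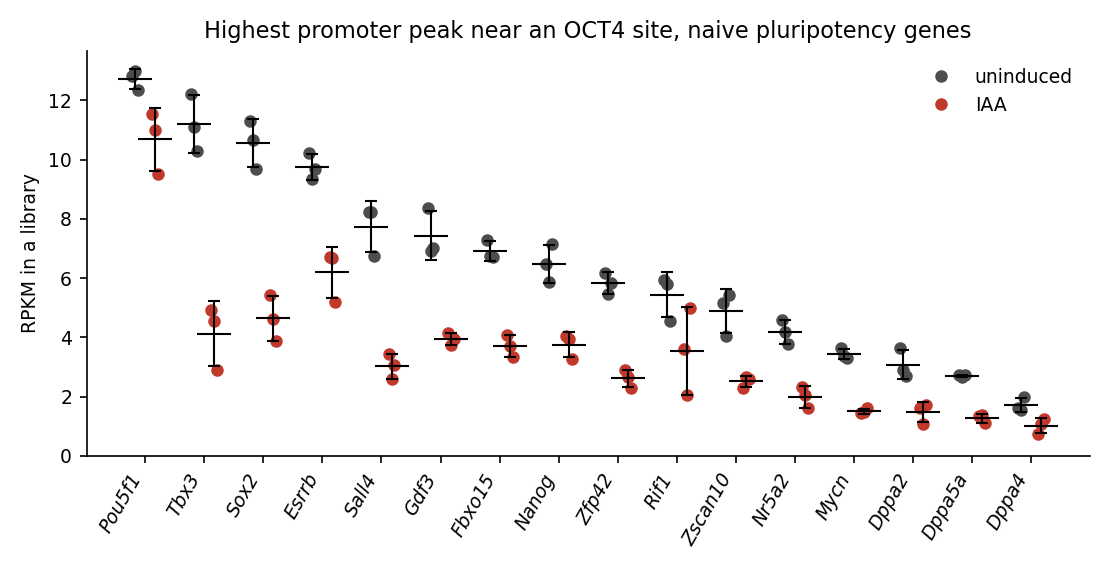
RPKM per library (y axis) of the highest promoter peak near an OCT4 site at 16 naive pluripotency genes (x axis), with uninduced libraries in grey, IAA libraries in red and bars for the mean and SD of 3 libraries. The groups overlap only at Rif1, and Pou5f1 has the smallest gap relative to its level, from 12.4 to 11.5 RPKM.

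Members of the same gene did not always change alike. Of 210 genes with 2 or more members, 191 had 2, 17 had 3 and 2 had 4, and the median distance between the lowest and highest log2 change at a gene was 0.17. At Nr5a2, an orphan nuclear receptor gene, the peak at chr1:136952179-136953332 had 4.58, 4.17 and 3.79 RPKM before and 2.34, 2.04 and 1.60 RPKM after IAA. Another peak of the gene, at chr1:136940254-136941053, had 1.52, 1.39 and 1.13 RPKM before and 1.50, 1.18 and 1.01 RPKM after. The libraries overlapped at the second peak and not at the first, with log2 changes of -1.04 and -0.13. Tmem131l had 4 members with changes from -1.20 to -0.46, and Alg13 had 3 from -2.01 to -0.75.

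At Esrrb and Zfp42 the octamers lie between or beside such peaks, and their sequences are shown for that reason, with the octamer in capitals and 20 bases of GRCm38 on either side. The Esrrb octamers are in introns of the gene, at chr12:86471026-86471073 (minus strand) and chr12:86504829-86504876 (plus), and the Zfp42 octamer is intergenic, at chr8:43307168-43307215 (plus).
Esrrb, 138 bases from the first peak: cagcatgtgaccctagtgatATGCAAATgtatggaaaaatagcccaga
Esrrb, 622 bases from the second peak: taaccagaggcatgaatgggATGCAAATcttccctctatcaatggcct
Zfp42, 77 and 286 bases from its peaks: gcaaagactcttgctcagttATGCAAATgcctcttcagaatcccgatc

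Esrrb encodes an orphan nuclear receptor of naive cells. Its peak at chr12:86470084-86470908 went from 6.74 ± 0.697 RPKM (SD, n = 3) to 3.15 ± 0.703 RPKM (log2 change -1.09), and its peak at chr12:86502162-86504227 from 9.74 ± 0.435 to 6.19 ± 0.859 RPKM (-0.66). Zfp42 (Rex1) is a zinc finger gene that marks naive cells. The Zfp42 peak at chr8:43306526-43306902 went from 5.83 ± 0.361 to 2.61 ± 0.293 RPKM (-1.13), and the one at chr8:43307271-43307559, nearer to the octamer, from 5.71 ± 0.677 to 3.87 ± 1.01 RPKM (-0.58). The call at the latter was lost without uninduced replicate 1 or 2 (limma adjusted p of 0.0534 and 0.0502). Of the 28 members of the naive list, 6 had an octamer in the peak or within 1 kb.

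Among DNA methylation and chromatin regulators, 9 of 43 listed genes had 14 members, and all 14 were lower, 2 of them relative to the median peak. Among all members the shares were 84.9% and 6.65%, and among all tested peaks 68.2% and 1.97%. The median change was -0.76, against -0.59 for the 66 promoter peaks of the list without an OCT4 site. Tet1, which oxidizes 5-methylcytosine, had 6.37, 5.82 and 5.53 RPKM in uninduced libraries and 2.25, 2.31 and 2.24 RPKM after IAA at chr10:62893355-62894256, with a log2 change of -1.34 (SE 0.152, limma adjusted p = 1.74e-05). Kdm3a, an H3K9 demethylase gene, changed by -1.21 and -1.04 at its 2 members. Of the 2 members at the acetyltransferase gene Kat6b, the one 32 bases from a start changed by -1.13 and the one 624 bases from a start by -0.55, with the latter not called without uninduced replicate 1 (limma adjusted p = 0.0589). The 3 members of Jarid2, a partner of Polycomb repressive complex 2, changed by -0.45, -0.44 and -0.72, and relative to the median peak the first 2 had small positive values of 0.10 and 0.11 that were not called. Without uninduced replicate 1 these same 2 peaks were not called on the first scale either (limma adjusted p of 0.0951 and 0.103), nor without IAA replicate 2 (0.0795 and 0.0539), and uninduced replicates 2 and 3 each decided 1 of them (0.0819 and 0.0628). The call at Ehmt2, an H3K9 methyltransferase gene, was lost without uninduced replicate 1 or IAA replicate 3 (limma adjusted p of 0.0682 and 0.0591), and that at Chd7, a chromatin remodeller gene, without uninduced replicate 2 or IAA replicate 1 (0.117 and 0.0693).

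Among signalling genes, 9 of 42 listed had 13 members, of which 11 were lower, a share near the 84.9% of all members, and 2 were lower relative to the median peak, against 6.65% of members and 1.97% of all tested peaks. The median change was -0.69, against -0.55 for the 38 promoter peaks of the list without an OCT4 site. Tdgf1, the co-receptor of Nodal, had 7.88, 6.80 and 6.73 RPKM in uninduced and 3.55, 3.05 and 2.47 RPKM in IAA libraries, with a log2 change of -1.22 (SE 0.163, limma adjusted p = 4.36e-05). Tcf7l1, the T-cell factor that represses Wnt targets in ESCs, changed by -1.06. The ligand gene Nodal changed by -0.77, and Il6st, which encodes the gp130 receptor of LIF, by -0.69. Of the FGF-ERK feedback and target genes, Dusp6 changed by -0.81 at both members, Etv5 by -1.02 and -0.65, and Spred2 by -0.44. The 2 members not called were at Etv4 (log2 change -0.18, limma adjusted p = 0.329) and Spred1 (-0.43, limma adjusted p = 0.0659), and the latter was called without IAA replicate 1 (limma adjusted p = 0.0280). The Spred2 call was lost when 1 of the uninduced libraries or IAA replicate 2 was left out (limma adjusted p of 0.0546 to 0.117). The 2 called members of Etv4 lost their calls without any 1 uninduced library or IAA replicate 3, and 1 of them also without IAA replicate 2 (limma adjusted p of 0.0634 to 0.122).

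Some housekeeping promoters were members. There were 4 at ribosomal protein genes, 1 at a proteasome subunit gene, 3 at splicing factor genes and 8 at oxidative phosphorylation genes, of 91, 39, 53 and 104 tested promoter peaks of these lists. Over all genes, 1218 of 13124 tested promoter peaks were members, and the shares of the lists were not tested against this. Of these 16 peaks, 15 were lower, where the background was 68.2%, and 0 were lower relative to the median peak, where it was 1.97%, so a count of 0 among 16 is near the background. The list medians were -0.59, -0.43, -0.46 and -0.63, with Rps3 at -0.58, the proteasome ATPase gene Psmc1 at -0.43, Srsf11 at -0.39 and Cox7a1, the one not called, at -0.28.

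The microRNA genes had 25 members, of which 20 (80%) were lower, between the 68.2% of all tested peaks and the 84.9% of all members. Several of the 25 also lie at starts of coding genes, such as Atp5g2. Those not called were at Gm44367, Gm44346, Gm44466, Gm44314 (chr13:23746873-23747289) and Mir101c. The first 4 also lie within 1 kb of Hist1 histone gene starts, and the Mir101c peak is 95.0% soft-masked repeat. The 80% is thus not a share of microRNA promoters alone. None of the 25 was lower relative to the median peak, where the background was 1.97%. The 2 clusters best known in ESCs are named here after their values were seen, and the difference between them was not tested. The peak over the miR-290 cluster, at chr7:3217913-3219796, had 7.75, 7.61 and 6.95 RPKM before and 5.87, 5.004 and 4.29 RPKM after IAA, with a log2 change of -0.56, which was -0.0042 relative to the median peak. The peak over the miR-302 cluster, at chr3:127545059-127546338, had 2.10, 2.62 and 2.38 RPKM before and 0.917, 0.845 and 1.06 RPKM after, with a log2 change of -1.24 (SE 0.205, limma adjusted p = 0.000237). Both had no overlap between groups, and the second was not called relative to the median peak (limma adjusted p = 0.0932).

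Near the 1 kb limit of the rule, the 2 members farthest from a start were at Pkp4 (999 bases, log2 change -0.70) and Rbm34 (996 bases, -0.32). The 2 tested peaks near OCT4 sites just outside the limit were 1013 bases from a start of Fgfbp1 (-0.61) and 1022 bases from one of Gm45413 (-1.30). Rbm34 was not called (limma adjusted p = 0.115). At Fgfbp1 the libraries overlapped. Its call was lost without uninduced replicate 1 or 3 or IAA replicate 1 or 3 (limma adjusted p of 0.0656 to 0.152).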

How the data were processed

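H3K27ac ChIP-seq was analyzed in 3 uninduced and 3 IAA libraries. Per the paper, the authors aligned reads to GRCm38 with Bowtie 2 (2.3.4.3 per the labels), removed duplicates, called peaks with MACS2 on pooled uninduced reads, and deposited RPKM values from DiffBind for each library, with pooled columns that equal the group means. MACS2 and DiffBind versions are not given in the sources used here. Every RPKM value is a whole multiple of 1 read (tolerance 1e-06 reads) and none is below 1 read. Since RPKM values are normalized, they were not fitted with a count model.

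The number of unused columns of per-sample values was 0. Intervals were read as start + 1 to end. Peaks with a pooled RPKM of at least 0.5 were tested on log2(RPKM + 0.1), a scale that understates changes of low peaks, with limma 3.58.1 (R 4.3.3, trend and robust) over 26457 peaks. In simulated data, 200 of these peaks were changed by 1 on the log2 scale, in both directions. There limma recovered 125 of the 200 (62.5%), with 5 false calls. Few peaks changed in that simulation, whereas most were lower in these data. Noise was drawn separately for each peak, so a shift shared by a whole library was not simulated. The false calls say nothing about such a shift. Library medians were compared by exact two-sided permutation with numpy 2.4.6. CpG content was taken over the peak widened to at least 500 bases. The named genes are the naive list at its highest member, the 6 largest falls and the 6 changes nearest 0 or above, the 4 highest members, 2 peaks on either side of 1 kb and the motif windows. Members and lists were chosen with earlier results of these data known. Alternatives were pseudocounts, thresholds, start windows, scaling, a replicate block and leaving out each library. Replicate numbers are shared between groups but no source says they pair samples.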

Additional observations from a re-analysis of the deposited data

How the results depend on the processing

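The difference of -0.74 at promoter peaks near OCT4 sites was -0.54 with a pseudocount of 1, -0.19 centred on the median peak and -0.17 after quantile normalization, where 74 members were called lower and 4 higher in place of 1034 and 0, and 81 and 7 with centring. At an adjusted p under 0.01 limma called 658 lower. Against other promoters, the shift of -0.22 was -0.17 with a pseudocount of 1, -0.15 within 5 groups by uninduced RPKM and -0.11 for CpG-rich peaks. Against distal peaks near OCT4 sites, it was 0.11 within groups by uninduced RPKM. With a pseudocount of 1 the over-start shift was 0.050, the same-gene shift -0.071 and the noncoding shift 0.039, and with no threshold the over-start shift was 0.066. The octamer gave 0.090 inside the peak and the composite -0.060, and among CpG-poor members the neighbour shift was -0.18. Among members at most 50% soft-masked, 4 were higher relative to the median peak.

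Leaving out 1 library gave -0.80 to -0.67 for the members, -0.25 to -0.19 against other promoters, -0.03 to 0.01 against distal peaks, -0.03 to 0.0030 for promoters against distal, -0.14 to -0.08 for the neighbour, -0.17 to -0.08 for CpG, 0.01 to 0.06 for the octamer, 0.08 to 0.10 for the start, 0.00035 to 0.03 for noncoding and -0.12 to -0.09 at the same gene. Calls ran from 710 (without uninduced replicate 1) to 1061, and relative to the median peak from 17 to 104 lower and 1 to 7 higher. The calls of 81 peaks were followed through these fits: the peaks named by rule, the motif peaks, Gm25939 and those of the naive, chromatin and signalling lists. Of these, 17 lost their call in at least 1 fit, from 3 to 14 a fit. Other peaks named in the text were not followed, among them Psmc1, Srsf11 and the least changed Tmem131l peak (limma adjusted p of 0.0383, 0.0328 and 0.0434).

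With the replicate number as a block, 1057 members were called lower and 0 higher, and the exact sign-flip permutation test of the 3 paired library values cannot go below p = 0.25. Deviations of same-numbered libraries correlated at -0.014, -0.091 and -0.061, and those of other pairs at -0.072 to 0.14. No pairing was seen, but counting error is part of each deviation and could hide one, so these values cannot decide it.

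Centring gave positive values that were not called at peaks otherwise called lower, with 0.083 at Dppa2, 0.092 at 4932422M17Rik, 0.10 and 0.11 at Jarid2, 0.0044 at Kat6b, 0.12 at Spred2, 0.097 and 0.087 at Etv4, 0.014 at Cnot9, 0.10 at Ttc25, 0.096 at Hnrnpu and 0.089 at Canx. Quantile normalization gave 0.083 at Dppa2, 0.12 and 0.066 at Jarid2, 0.14 at Spred2, 0.11 and 0.095 at Etv4, 0.0017 at Cnot9, 0.11 at Ttc25 and 0.046 at Canx. The causes were not tested.

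Depth limits single peaks, since the median member held 51 to 61 reads in an IAA library. Without a spike-in, less H3K27ac at all peaks and more background reads in the IAA libraries cannot be told apart. The peaks were called on uninduced reads, so peaks seen only after IAA are not on the list.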
